A study of Mus musculus with 12 samples.

Results

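The neuronal cytoskeleton genes described here are the neuronal microtubule-binding proteins Dcx and Map2, the neuronal intermediate filament subunits Ina, Nefl and Nefm, the neuronal beta-tubulin Tubb3 and the 4 stathmins Stmn1, Stmn2, Stmn3 and Stmn4. These 10 genes were fixed by symbol, and they were selected on earlier results in the same samples, in which Dcx and Ina had been noted as rising and Stmn2 as falling in tumors. Their difference between tumor and normal lung is therefore given as a description, without a test. Of the 10 genes, 8 were found among the 30399 genes of the table, and Nefl and Tubb3 were not analysed here.

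The study sequenced poly-A RNA from mouse lung tumors generated by nonviral CRISPR/Cas9 mutagenesis, in which the Cas9 nuclease is brought into the lung without a virus to disable chosen genes, and from normal mouse lung. The 2 groups are 5 samples labelled normal lung and 7 labelled tumor. The labels give no strain, age, treatment, edited gene or time for either group. Tumors 3 and 4 share the number 159 in their titles and tumors 5, 6 and 7 share the number 201, so that the 7 tumors carry 4 distinct numbers, and it is not stated whether tumors of one number came from one animal.

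Neurons hold their shape with bundles of microtubules and of neurofilaments. Doublecortin (Dcx) and Map2 bind along microtubules and stabilise them, doublecortin in migrating young neurons and Map2 mainly in dendrites. Alpha-internexin (Ina) and the neurofilament light and medium chains (Nefl, Nefm) are assembled together into the intermediate filaments of axons. Stathmins work in the other direction, binding free tubulin dimers and promoting microtubule shrinkage. Stmn1 is found in many dividing cells, whereas Stmn2, Stmn3 and Stmn4 carry a membrane anchor and are best known from neurons. In the lung such genes are known from nerve fibres and in the rare pulmonary neuroendocrine cells, and neuroendocrine tumors can express them as well.

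Promoter windows were found for only 4 of the members, Dcx, Ina, Map2 and Stmn3, and the 250 bases before the annotated start are shown for each. These genes went from few or no reads (Dcx, Ina and Stmn3) or a moderate level (Map2) in normal lung to a high level in tumors. The sequences are from RefSeq on GRCm38.p6, the build of the promoter table and not that of the expression table, and read 5′ to 3′ on the strand of the gene. The windows are chrX:143933220-143933469 on the minus strand for Dcx, chr19:47014431-47014680 on the plus strand for Ina, chr1:66175079-66175328 on the plus strand for Map2 and chr2:181314501-181314750 on the minus strand for Stmn3. Capitals mark the motifs that were found.
Dcx: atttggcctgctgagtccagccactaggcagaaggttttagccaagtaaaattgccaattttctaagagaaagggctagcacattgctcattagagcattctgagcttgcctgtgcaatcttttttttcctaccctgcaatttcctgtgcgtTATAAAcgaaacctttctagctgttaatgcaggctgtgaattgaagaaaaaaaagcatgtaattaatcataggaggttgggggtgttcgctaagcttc
Ina: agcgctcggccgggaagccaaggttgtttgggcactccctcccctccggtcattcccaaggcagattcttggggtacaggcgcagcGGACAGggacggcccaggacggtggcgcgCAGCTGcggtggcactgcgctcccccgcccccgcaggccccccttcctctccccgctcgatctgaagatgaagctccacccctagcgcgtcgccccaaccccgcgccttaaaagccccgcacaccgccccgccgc
Map2: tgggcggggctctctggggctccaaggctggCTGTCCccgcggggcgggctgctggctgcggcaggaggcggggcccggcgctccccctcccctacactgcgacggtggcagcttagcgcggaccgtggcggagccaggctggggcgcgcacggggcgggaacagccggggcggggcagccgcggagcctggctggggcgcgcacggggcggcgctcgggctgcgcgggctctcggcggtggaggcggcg
Stmn3: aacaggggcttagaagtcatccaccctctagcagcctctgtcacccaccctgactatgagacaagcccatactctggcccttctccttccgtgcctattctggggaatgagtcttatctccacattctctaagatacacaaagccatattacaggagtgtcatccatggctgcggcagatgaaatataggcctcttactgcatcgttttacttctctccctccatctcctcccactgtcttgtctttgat
4 motifs were searched on both strands, and none of their matches overlapped another. TCAGCACC and GGACAG are the left and right parts of the element bound by REST, a repressor of neuronal genes outside the nervous system, CAGCTG is an E-box, the type of site read by neurogenic basic helix-loop-helix factors, and TATAAA is the TATA box. The Dcx window held TATAAA at positions -98 to -93 from the start, a motif present in 12.4% of the 32851 promoter windows of the same length. A second Dcx start, at which the same TATAAA lies at positions -193 to -188, has a window that overlaps the first. The Ina window held GGACAG at -164 to -159 and CAGCTG at -135 to -130. The Map2 window held the reverse complement of GGACAG at -219 to -214. GGACAG occurred in 18.7% and CAGCTG in 13.0% of all windows. TCAGCACC, present in 1.32% of all windows, was in none of the member windows, and the Stmn3 window held none of the 4. The windows also differed in base composition. Ina had 25 CpG dinucleotides and 70.8% G and C, Map2 34 and 81.2%, whereas Dcx had 3 and 41.6% and Stmn3 3 and 48.8%, beside medians of 6 and 52.4% over all windows.

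Values are normalized counts, the read count of a gene divided by the size factor of its sample. Normal lung libraries held 11126432 to 17032234 reads assigned to genes and tumor libraries 13093843 to 24217633, and 3 reads are worth at most 4.85 normalized counts in a normal lung library and 3.57 in a tumor library. Log2 differences are tumor minus normal lung on the log2(value + 1) scale, with the standard error (SE) of a limma fit over all 23674 genes whose mean was 1 or more, and they understate the difference of genes with low values. A gene was called at a Benjamini-Hochberg adjusted p under 0.05 and a log2 difference of at least 1 in size. Tumor and normal lung differed broadly, with 24.0% of the tested genes called higher in tumor and 24.5% called lower. All tumors lay above all normal lungs for 20.1% of genes and below them for 18.4%. Of the 8 members, 7 were higher and 1 was lower under that call, and since the members were selected on this contrast nothing is read from those counts. The median log2 difference was 6.0 over the members and 0.04 over all tested genes. In bulk tissue, more cells of a type and more RNA per cell cannot be told apart.

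Doublecortin had no read in any of the 5 normal lungs. Dcx (ENSMUSG00000031285, chromosome X) stood at 1726, 3234, 6061, 4191, 5582, 4226 and 2160 normalized counts in tumors 1 to 7. All tumors were thus high, with tumors 1 and 7 lowest and tumors 3 and 5 highest. The tumor mean of 3883 ± 1627 (SD, n = 7) was 801 times the 3-read floor of the shallowest normal lung library, taken as an upper limit for normal lung. The log2 difference of 11.80 (SE 0.31) depends on the pseudocount and is not a bound.

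Map2 was already expressed in normal lung, at a level that varied little between samples, and was higher in every tumor. Map2 (ENSMUSG00000015222, chromosome 1) stood at 309.5, 280.6, 306.9, 268.0 and 313.8 normalized counts in the 5 normal lungs. The tumors had 4745, 3732, 5517, 4645, 9070, 7277 and 3528. The groups were far apart. Tumors 5 and 6 were the highest, and tumor 7, which shares their title number, was the lowest. The means were 295.8 ± 20.2 (SD, n = 5) and 5502 ± 2009 (SD, n = 7), an 18.6-fold higher level in tumors with a log2 difference of 4.14 (SE 0.22).

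Alpha-internexin was close to absent from normal lung and abundant in every tumor. Ina (ENSMUSG00000034336, chromosome 19) had 0 reads in normal lungs 1, 2, 3 and 5 and 2 reads, a normalized count of 2.82, in normal lung 4. The tumors had 5013, 4521, 8132, 4964, 4966, 5087 and 2564 normalized counts. Tumors 1, 2, 4, 5 and 6 lay close together, with tumor 3 above and tumor 7 below them. The tumor mean was 5035 ± 1632 (SD, n = 7), the log2 difference was 11.84 (SE 0.37), and the pooled ratio was 9827 with a 95% counting interval of 2720 to 81144, which reflects the 2 normal lung reads and covers counting error only. Exons of Ina share 456 bases with those of Nt5c2 on the opposite strand, and use of the strand in counting is not given in the sources used here. Nt5c2 had 956.1 ± 106.4 normalized counts in the same normal lungs in which Ina had 0 to 2 reads, and 2971 ± 869.8 in tumors. The part of this overlap in the tumor values of Ina was not tested.

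The neurofilament medium chain behaved differently from alpha-internexin, its filament partner. Nefm (ENSMUSG00000022054, chromosome 14) had 2, 1, 3, 2 and 2 reads in normal lungs 1 to 5, or 1.08 to 4.85 normalized counts. In tumors 1 to 7 it had 3.80, 531.3, 16.9, 53.0, 45.3, 190.0 and 300.4 normalized counts. Tumor 1, with 6 reads, fell within the normal lung range, so that the groups overlapped, whereas tumors 2 and 7 were highest. The log2 difference was 4.26 (SE 0.98), the largest SE among the members, and the pooled ratio was 63.6 (95% counting interval 34.6 to 132.6). That interval covers counting error of the 10 normal lung reads only and leaves out the spread between tumors. The ratio rests on a tumor mean of 162.9 ± 194.9 (SD, n = 7), well above the tumor median of 53.0. Per kb of exon, Ina exceeded Nefm in every tumor, by 15.2 to 2355 times. In the annotation used, a transcript of Nefl overlaps Nefm on the opposite strand over 1108 bases, which leaves the low Nefm values uncertain.

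**Figure D1:**
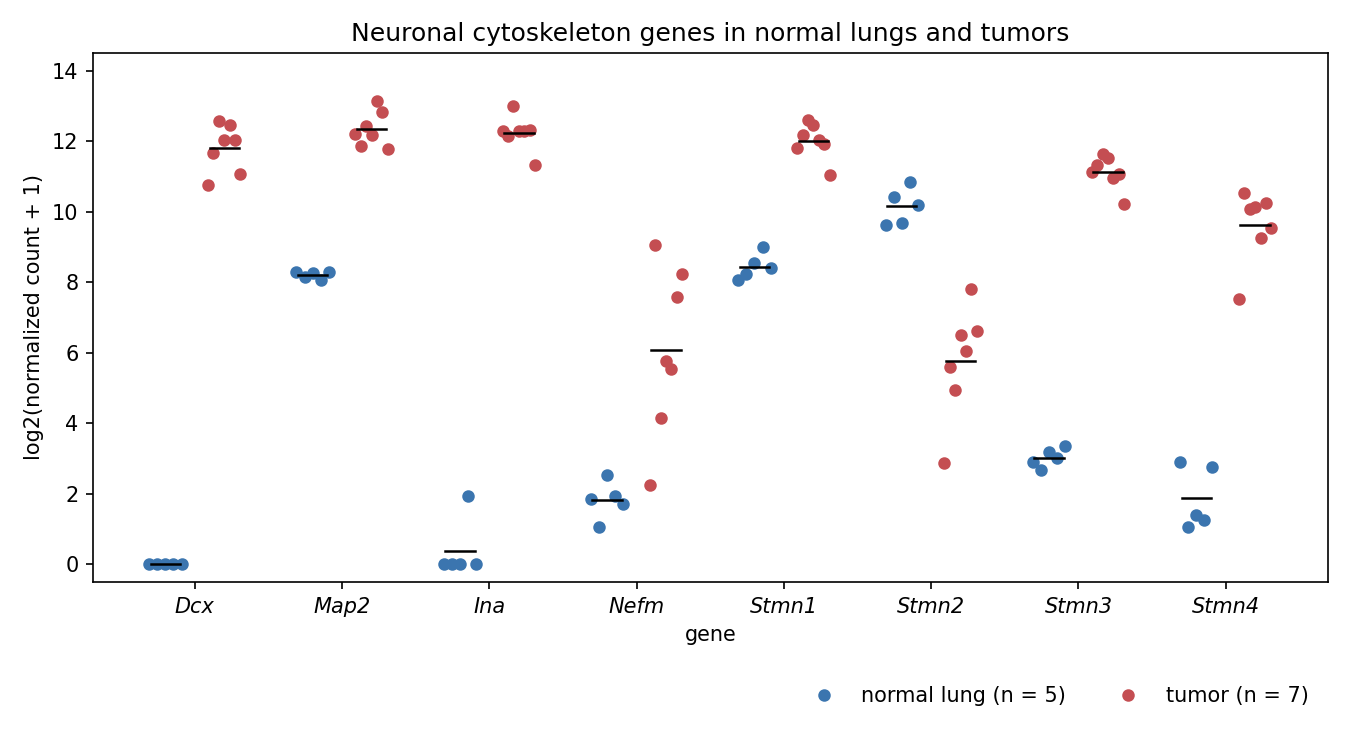
Each point is 1 sample, the vertical axis is log2(normalized count + 1), and the lines are group means of 5 normal lungs (blue) and 7 tumors (red) for the 8 measured genes. The groups are apart for every gene except Nefm, whose lowest tumor (3.80 normalized counts) lies within the normal lung range, and Stmn2 is the gene with tumors below normal lung.

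The stathmins diverged within their family, with all tumors above all normal lungs for Stmn1, Stmn3 and Stmn4 and below them for Stmn2. Stmn1 (ENSMUSG00000028832, chromosome 4), the widely expressed stathmin, stood at 265.7, 297.8, 371.5, 506.4 and 334.5 normalized counts across the normal lungs. Tumors 1 to 7 stood at 3580, 4614, 6250, 5679, 4190, 3871 and 2122. Its lowest tumor, tumor 7, was well above its highest normal lung. The means of 355.2 ± 93.4 (SD, n = 5) and 4329 ± 1370 (SD, n = 7) gave a 12.2-fold difference, 3.57 (SE 0.25) on the log2 scale.

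The Stmn1 count is uncertain because of a near-identical copy in the table. Gm11223, a processed pseudogene of 450 bases, matches the Stmn1 transcript at 99.8% over its whole length. Its normalized counts averaged 2198 ± 632.6 over the normal lungs and 22077 ± 8230 over the tumors, more than Stmn1 itself in each sample, at 5.60 to 7.11 times Stmn1 in normal lungs and 4.08 to 6.11 times in tumors. How reads that fit both were assigned is not given in the sources used here. Summed, the 2 genes stood at 2553 ± 722.1 in normal lung against 26407 ± 9481 in tumors, a log2 difference of 3.33, close to that of Stmn1 alone.

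Stmn2 was the member with lower values in tumor. Stmn2 (ENSMUSG00000027500, chromosome 3), also called SCG10, is an axonal stathmin involved in neurite growth and repair. Its normalized counts were 791.8, 1364, 815.6, 1847 and 1166 across the 5 normal lungs. The 7 tumors, in order, had 6.33, 47.7, 29.7, 89.8, 65.5, 221.7 and 96.7. Even tumor 6, the highest, was far below the lowest normal lung, and tumor 1 was near the floor. The mean went from 1197 ± 436 (SD, n = 5) to 79.6 ± 70.3 (SD, n = 7), a 15.0-fold lower level with a log2 difference of -4.38 (SE 0.64).

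Stmn3 and Stmn4, the remaining neuronal stathmins, were near the floor in normal lung. Stmn3 (ENSMUSG00000027581, chromosome 2) stood at 6.45, 5.38, 8.08, 7.05 and 9.20 normalized counts across the normal lungs, on 28 reads in all, and at 2233, 2574, 3174, 2919, 1979, 2140 and 1180 in tumors 1 to 7. Tumor 7 was lowest and tumor 3 highest, as for Stmn1. The pooled ratio was 322.6 (95% counting interval 223.2 to 485.5) and the log2 difference 8.10 (SE 0.24). Stmn4 (ENSMUSG00000022044, chromosome 14) stood at 6.45, 1.08, 1.62, 1.41 and 5.75 normalized counts across the normal lungs, on 13 reads in all, and at 184.2, 1478, 1071, 1128, 612.4, 1217 and 745.5 in tumors 1 to 7. Tumor 1 stood apart at the low end. The pooled ratio was 276.1 (95% counting interval 161.4 to 518.5) and the log2 difference 7.75 (SE 0.52). The counting intervals of Stmn3 and Stmn4 also leave out the spread between tumors.

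The make-up of the stathmin family was exchanged between the tissues. With each gene's normalized count divided by its exon length, Stmn2 made up 51.8% ± 6.86 (SD, n = 5) of the 4 stathmins in normal lung and 0.335% ± 0.316 (SD, n = 7) in tumors. Stmn3 took the opposite course, from 1.66% ± 0.508 to 42.7% ± 3.31, and Stmn4 went from 0.487% ± 0.461 to 10.2% ± 4.58. Stmn1 held a like share in both, 46.0% ± 6.40 and 46.8% ± 3.04, with overlapping ranges of 38.4% to 55.7% and 43.3% to 51.3%. The summed level per kb was 406.5 ± 117.4 in normal lung and 4784 ± 1393 in tumors. These shares depend on the exon length used and on how Stmn1 is counted. The length is that of all annotated exons of a gene together, 1922 bases for Stmn1, whose longest coding transcript has 1060 bases. Shares with other lengths were not tested. With the Gm11223 reads added to Stmn1, Stmn1 made up 83.5% to 89.6% in normal lungs and 82.4% to 87.3% in tumors, Stmn2 9.88% to 16.2% and 0.00903% to 0.258%, and Stmn3 0.271% to 0.592% and 10.6% to 15.7%. The Stmn2 and Stmn3 ranges of the 2 tissues did not overlap under either count.

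**Figure D2:**
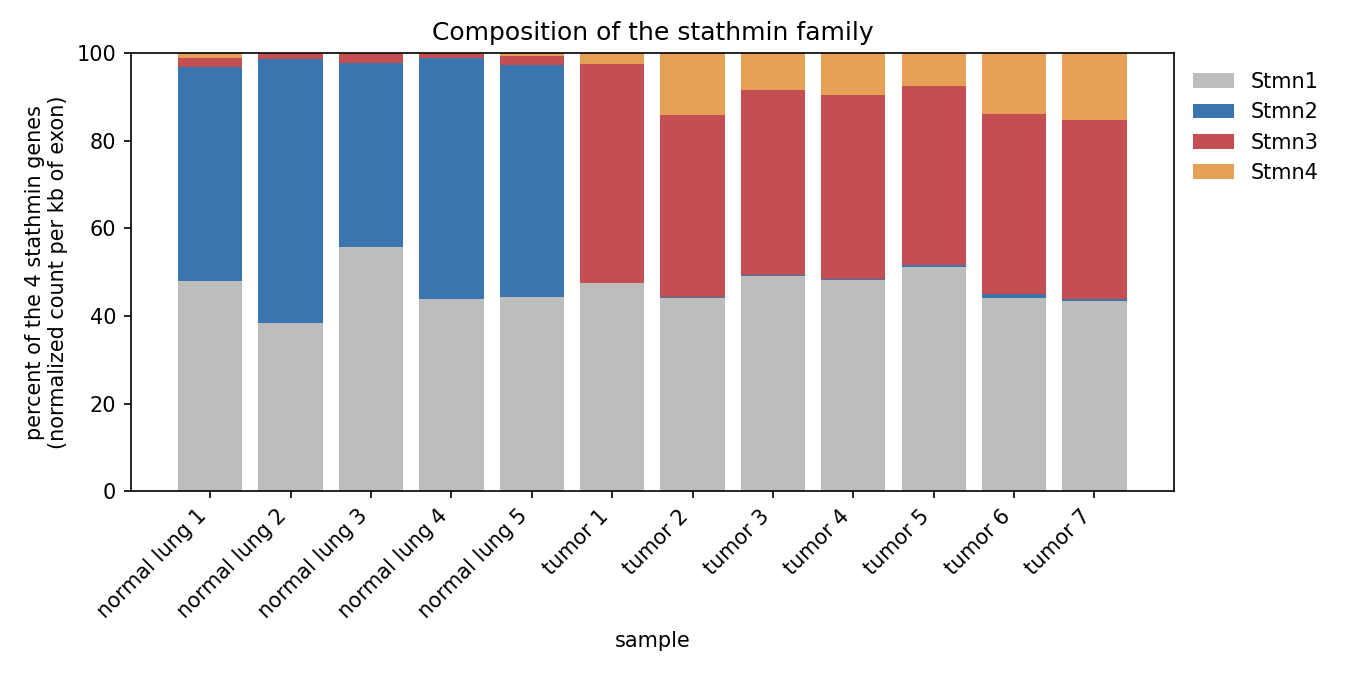
Stacked bars give, for each of the 12 samples, the percent of the summed normalized count per kb of exon that belongs to Stmn1, Stmn2, Stmn3 and Stmn4, without the Gm11223 reads. Stmn2 fills 42.0% to 60.3% of the bar in normal lungs and at most 0.866% in tumors, where Stmn3 fills 40.8% to 50.1%.

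Levels per kb of exon, with Stmn1 counted without the Gm11223 reads, order the genes within each tissue. The order between genes rests on the length of all annotated exons of each gene and was not tested with transcript lengths. With those reads added, Stmn1 stood above every other stathmin, at no less than 83.5% of the family in normal lungs and 82.4% in tumors. In normal lung Stmn2 (213.6 ± 77.8 normalized counts per kb, SD, n = 5) and Stmn1 (184.8 ± 48.6) led and did not differ beyond their spread, followed at a distance by Map2 (18.0 ± 1.23) and Stmn3 (6.36 ± 1.30). Stmn4 (1.70 ± 1.36), Nefm (0.471 ± 0.236) and Ina (0.174 ± 0.389) formed a low group in which neighbours were within their spread, and Dcx was at 0. Stmn4 was above Nefm in every normal lung, but on only 1 to 5 reads per sample. In tumors the order began with Stmn1 (2253 ± 712.7 per kb, SD, n = 7), Stmn3 (2037 ± 580.2) and Ina (1554 ± 503.6). These means were each within the spread of the next between tumors. Within samples, however, Stmn1 and Stmn3 were each above Ina in every tumor, whereas Stmn3 stood at 0.799 to 1.06 times Stmn1. Stmn4 (479.9 ± 226.7), Map2 (334.5 ± 122.1) and Dcx (307.0 ± 128.6) formed a middle group within their spread, and Nefm (28.2 ± 33.7) and Stmn2 (14.2 ± 12.6) came last, within their spread. Stmn2 was thus one of the 2 leading genes in normal lung and one of the 2 lowest in tumors.

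Among the tumors the members ranged from steady to variable genes. The SD of the log2 level over the 7 tumors was 0.49 for Ina, 0.47 for Stmn3, 0.50 for Map2 and 0.51 for Stmn1. These were near the median of 0.50 over 16385 genes with a mean log2 level of at least 4 in tumors. Dcx was above that median at 0.68, and 66.7% of those genes varied less. The SD was 1.02 for Stmn4, 1.56 for Stmn2 and 2.40 for Nefm, and 98.1% of those genes varied less than Nefm and 92.3% less than Stmn2. Nefm spanned 139.9 times from its lowest to its highest tumor and Stmn2 35.0 times, whereas Map2 spanned 2.57 times and Stmn3 2.69 times. Tumor 1 was the lowest tumor for Dcx, Nefm, Stmn2 and Stmn4 but not for Ina, Map2, Stmn1 or Stmn3, for which tumor 7 was lowest. As a result the ratio of Dcx to Ina per kb was 0.0882 in tumor 1 and between 0.183 and 0.288 in the other tumors. The ratio of Stmn3 to Stmn1 per kb, without the Gm11223 reads, stayed within 0.799 to 1.06.

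Tumors with the same title number were not uniformly alike. Over the 4 pairs of tumors that share a number, the mean absolute log2 difference was 0.51 for Stmn4, against 1.24 over the other 17 pairs, and 1.75 against 3.19 for Nefm. For Dcx the same-number pairs differed by 0.82 and the other pairs by 0.81, and for Ina by 0.67 and 0.47. Pairs share samples, and these values are given without a test.

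**Figure D3:**
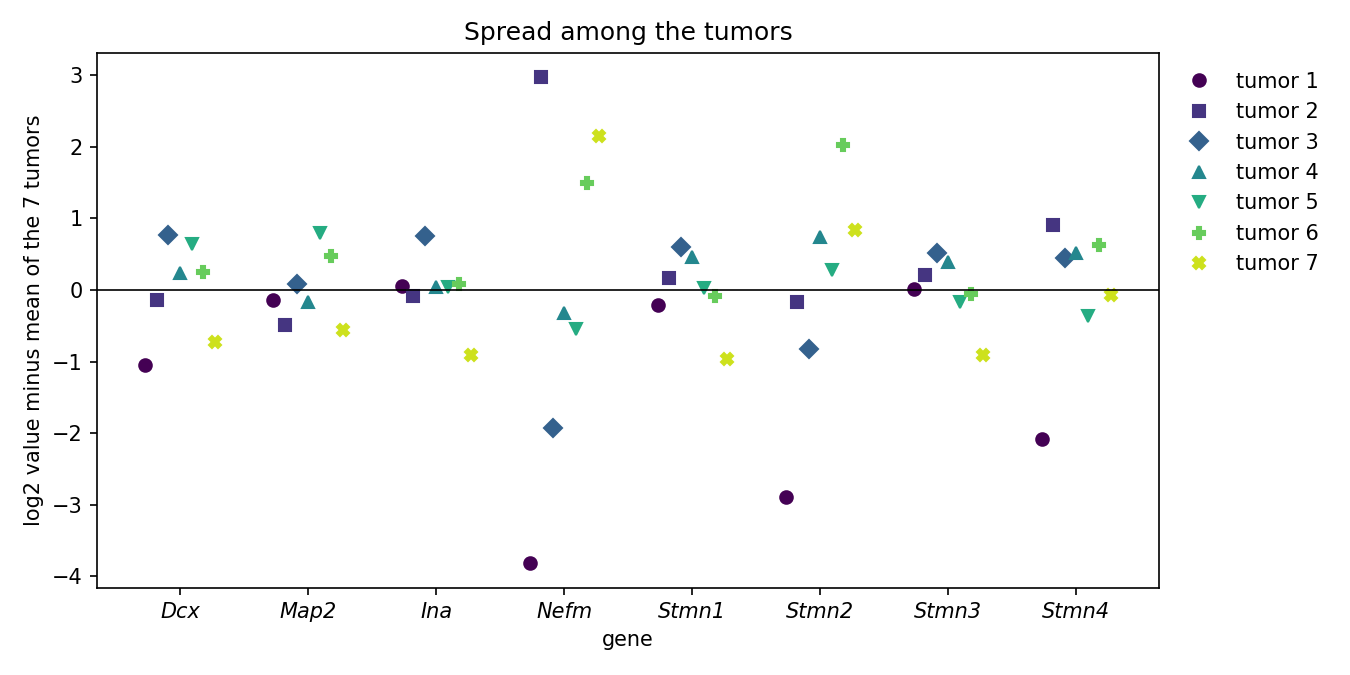
Each symbol is 1 of the 7 tumors, plotted as its log2(normalized count + 1) minus the mean of the 7 tumors for that gene. Nefm, Stmn2 and Stmn4 spread widest, with SDs of 2.40, 1.56 and 1.02, and tumor 1 lies lowest for these genes and for Dcx.

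The titles also place 2 tumors (1 and 7) by the Spanish word for trachea and 4 (3 to 6) by that for lung, a split that played no part in choosing the genes. Tumors 3 and 4 share a title number, and tumor 7 shares its number with tumors 5 and 6. The fits of this split took the tumors as independent, so their SEs and p-values do not allow for the shared numbers. All 8 members had lower mean log2 levels in the trachea-titled tumors, but no difference passed the adjustment over 23282 genes. The share of all genes that were lower in those tumors is not given here, so nothing is read from the shared direction. The largest in relation to its error was that of Dcx, at 1943 against 5015 normalized counts, a log2 difference of -1.36 (SE 0.24, limma unadjusted p = 0.000709, adjusted p = 0.317). Stmn4 (-1.39, SE 0.56, adjusted p = 0.536) and Stmn1 (-0.83, SE 0.31, adjusted p = 0.51) also had an unadjusted p under 0.05. Stmn2 (-1.58, SE 1.15) and Nefm (-0.51, SE 1.62) were too variable to place. The mean normalized count of Nefm was in fact higher in the trachea-titled tumors, at 152.1 against 76.3. Ina (-0.66, SE 0.34), Map2 (-0.65, SE 0.31) and Stmn3 (-0.62, SE 0.33) had differences close to each other. Over all genes 0.0% were called between these tumors with limma, with 2086 genes at an unadjusted p under 0.05 and a smallest adjusted p of 0.249. edgeR on 5 of these tumors also called 0, with 1407 at an unadjusted p under 0.05, and limma with no filter on low values called 28. Tumors 1 and 7 also stood at the ends of several marker sums, but at opposite ends for fibroblast markers (2975 and 28352). Tumor 7 alone was highest for leukocyte and cardiac markers, and the part of such markers in this split was not tested.

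The rest of the neuronal cytoskeleton was followed in 5 lists of 52 other genes, each tested with limma over all 23674 genes. Of the 52, 28 rose, 7 fell and 17 were not called, beside 24.0% and 24.5% of all genes, and their median log2 difference was 1.07 against 0.04 for all genes. The lists were drawn up with earlier results of these data known.

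Among 5 intermediate filament genes of neural cells, the axonal filaments rose and those of progenitor and mesenchymal cells fell. Nefh, the neurofilament heavy chain, went from 14.6 ± 12.7 normalized counts in normal lung to 1225 ± 846.5 in tumors (log2 difference 6.56, SE 0.64, limma adjusted p = 1.36e-06). Prph, peripherin of peripheral neurons, went from 12.8 ± 7.26 to 935 ± 570.9 (5.70, SE 0.76, adjusted p = 2.34e-05). Nes, nestin of neural progenitors and vessels, fell from 3985 ± 781.1 to 340.5 ± 365.5 (-4.14, SE 0.57, adjusted p = 3.47e-05), and Vim, vimentin of mesenchymal cells, from 14456 ± 3025 to 2741 ± 3405 (-2.99, SE 0.52, adjusted p = 0.000225). DESeq2 gave Vim no adjusted p, with a log2 difference of -2.22. Gfap of glia was not called with limma (0.81, SE 0.86, adjusted p = 0.428) but was called higher by both count tests.

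Of 16 microtubule-associated proteins and their partners, 9 rose, none fell and 7 were not called, with a median log2 difference of 2.00. The largest changes were in Dpysl4, a collapsin response mediator protein (8.63, SE 0.46, adjusted p = 5.29e-09), in Map7d2, which helps recruit kinesin to microtubules (7.44, SE 0.32, adjusted p = 1.03e-09), and in Crmp1, another collapsin response mediator protein (6.30, SE 0.33, adjusted p = 4.8e-09). In normal lung Dpysl4 and Map7d2 were below the floor on average, at 2.08 and 2.63 normalized counts, and Crmp1 was at 32.3. In tumors they stood at 1000 ± 299.4, 646.7 ± 237.7 and 2432 ± 688.2. The doublecortin-like kinases Dclk1 (2.60, SE 0.17) and Dclk2 (4.80, SE 0.23) rose with Map1b (3.08, SE 0.18). The smallest called changes were in Map1a (2.46, SE 0.22, adjusted p = 7.39e-07), whose exons overlap another gene, and Map6 (1.53, SE 0.25, adjusted p = 0.000137). The axonal tau gene Mapt, at 6218 ± 1695 normalized counts in normal lung against 9338 ± 2361 in tumors, was not called.

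The 12 tubulins had a median log2 difference of 0.01, with 5 higher, 3 lower and 4 not called. Tubb5, a beta-tubulin of dividing and young cells, rose from 9898 ± 2467 to 68852 ± 26806 normalized counts (2.74, SE 0.26, adjusted p = 1.07e-06). Tubb4a, a neural beta-tubulin, rose from 1143 ± 373.3 to 5008 ± 1883 (2.11, SE 0.27, adjusted p = 1.87e-05). Tuba1b (1.48, SE 0.27, adjusted p = 0.000313) and Tuba1c (1.07, SE 0.17, adjusted p = 0.000103) were the smallest called rises, and Tuba1c lost its call without normal lung 1. Tubb1, the beta-tubulin of platelets and megakaryocytes, fell from 823.2 ± 486 to 38.5 ± 44.3 (-4.83, SE 0.65, adjusted p = 2.73e-05). Tuba8 fell from 369.4 ± 105.5 to 117.4 ± 60.6 (-1.77, SE 0.36, adjusted p = 0.000837), and Tuba1a from 10.4 ± 4.32 to 3.17 ± 1.72 (-1.49, SE 0.40, adjusted p = 0.00536). Tuba1a and Tuba1b overlap a readthrough gene on the same strand, Gm49450, and alpha-tubulin genes are near copies of each other, so their separate values are uncertain.

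Enzymes that modify the tails of tubulin mostly rose, 6 of 9 with none called lower and a median log2 difference of 1.48. Vash2 and Vash1, which remove the terminal tyrosine of alpha-tubulin, rose by 5.02 (SE 0.37, adjusted p = 8.35e-08) and 2.06 (SE 0.27, adjusted p = 2.28e-05). Agbl4, a deglutamylase, rose by 2.67 (SE 0.37, adjusted p = 3.47e-05). The polyglutamylases Ttll11 (1.48, SE 0.24, adjusted p = 0.000134) and Ttll1 (1.01, SE 0.21, adjusted p = 0.000881) rose least, and Ttll1 lost its call without any 1 of 5 samples, normal lungs 2 and 3 and tumors 1, 3 and 4. Svbp, the partner protein of the vasohibins, had 341.7 ± 79.3 and 289.9 ± 39.5 normalized counts and was not called.

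In the list of growth cone and membrane skeleton genes 6 of 10 rose and 2 fell, with a median of 2.29. Gprin1, a growth cone protein, showed the largest change, from 4.30 ± 1.72 to 3278 ± 1421 normalized counts (9.20, SE 0.35, adjusted p = 4.14e-10). The ankyrin and spectrin genes of the membrane skeleton changed in both directions. Ank2 (4.35, SE 0.32, adjusted p = 9.59e-08) and Sptbn4 (4.44, SE 0.62, adjusted p = 3.59e-05), a spectrin of axons, rose, while Ank3 (-1.12, SE 0.31, adjusted p = 0.0067) and Sptbn1 (-2.39, SE 0.21, adjusted p = 4.2e-07), the widely expressed beta-spectrin, fell. Exons of Sptbn4 overlap another gene. The call of Ank3 was lost without tumor 3 (-0.88, adjusted p = 0.00229), with quantile normalization, with equal totals and with both count tests. Marcks (1.06, SE 0.19, adjusted p = 0.00028) lost its call without tumor 3, where the log2 difference was 0.94, with DESeq2 (0.98) and with tumors of one title number averaged (0.93). Gap43, a classical growth cone marker, had 700.3 ± 217.2 and 1160 ± 507.9 normalized counts and was not called (0.66, SE 0.28, adjusted p = 0.0558).

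**Figure D4:**
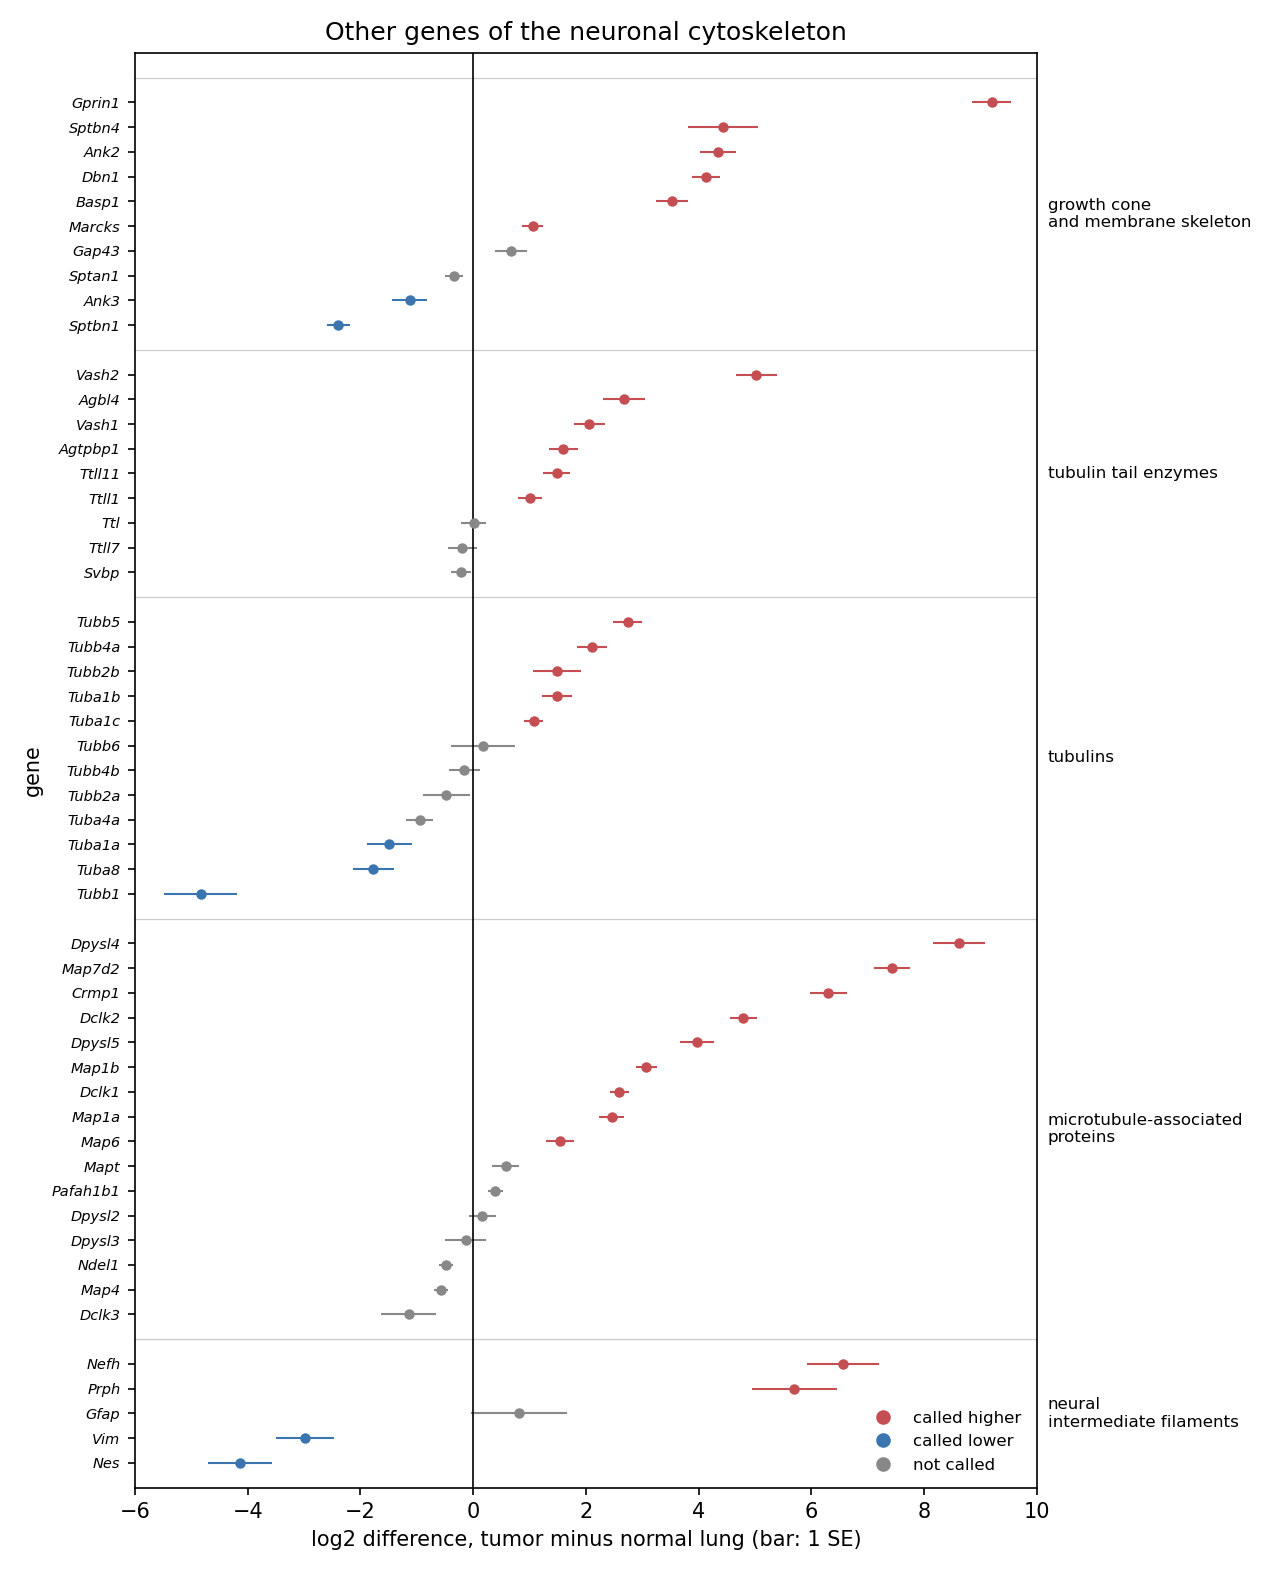
Points give the log2 difference of 52 other cytoskeleton genes, tumor minus normal lung, with bars of 1 SE, grouped by list and coloured by call (red higher, blue lower, grey not called). In the list of microtubule-associated proteins 9 of 16 are called higher and none lower, and the tubulins lie on both sides of 0.

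Markers of other cell types moved with these genes, and their part in the results was not tested. All 8 neuroendocrine markers, Chga and Syp among them, rose, with a summed level of 220.4 to 268.0 normalized counts in normal lungs and 34111 (tumor 7) to 133472 (tumor 4) in tumors. All 7 cycling-cell markers rose, from 1447 to 2797 in normal lungs to 20256 (tumor 7) to 47427 (tumor 5) in tumors. Of 6 autonomic or sensory neuron markers tested, 5 rose, with sums of 2.82 to 16.2 in normal lungs and 346.9 (tumor 1) to 3005 (tumor 3) in tumors. Th and Scn9a were at 0 in every normal lung, and Dbh was at 0 in some tumors. Of 7 Schwann cell markers 1 rose and 1 fell, with overlapping sums of 2158 to 2923 and 2094 to 5708, and Cdh19 and Foxd3 were at 0 in some tumors. Most markers of other cells of the normal lung fell, 8 of 8 for lung epithelium (276143 to 490303 against 485.8 to 2963), 5 of 5 for endothelium (55650 to 64621 against 2229 to 7284), 6 of 6 for leukocytes (5510 to 9267 against 94.2 to 5602) and 3 of 4 for mesothelium (795.6 to 2379 against 6.94 to 1010). Of 5 fibroblast markers 1 fell, Pdgfra, and 4 were not called, with overlapping sums of 8909 to 21658 in normal lungs and 2975 to 28352 in tumors. Sftpa1, Cd3e, S100a8, Upk3b, Wt1 and the cardiac Myh6 were at 0 in some tumors, and no marker was at 0 in all of them. Tumor 7, the lowest tumor for Ina, Map2, Stmn1 and Stmn3, held the highest leukocyte sum (the others were at most 1526) and a cardiac muscle sum of 36115 beside at most 2410 in the other tumors, although no cardiac marker was called. Without tumor 7 the cytoskeleton lists still gave 28 genes higher and 7 lower. Stmn2 was lower in tumors while the neuroendocrine and neuron sums were higher.

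The genes whose pattern was most like each member were ranked by the root mean square difference of log2 levels over the 12 samples, each gene centred on its own mean, among 16483 genes with a mean log2 level of at least 4. The distance covers both groups, so genes with a like step from normal lung to tumor come out near each other. The members were selected on that step, and nearness is therefore no separate evidence of shared expression. Dcx and Ina were among each other's 3 nearest genes (0.63), and Chga, a protein of secretory granules, was among the 3 nearest of both (0.61 for Dcx and 0.77 for Ina). Map2 was nearest to Nasp (0.20), a histone chaperone, Syp (0.21), a synaptic vesicle protein, and Kif20b (0.25), a kinesin of dividing cells. Stmn1 was nearest to its copy Gm11223 (0.21) and had Smc1b (0.25) among its 3 nearest, and Stmn3 to Dlgap3 (0.28), Dner (0.44) and Cacng5 (0.45). Nefm had no close match, with Sp9 (0.89), Lrrc7 (0.94) and Pde10a (1.21) first, and for Stmn4 Mir124a-1hg (0.65), Il17f (0.71) and Disp3 (0.72) came first. Stmn2 was nearest to Prex2 (0.58), Prmt8 (0.60) and Etv5 (0.64). Mean normalized counts of Etv5 were 2941 over normal lungs against 174.7 over tumors, and those of Prex2 were 5184 ± 1359 against 374.7 ± 200.1.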

How the data were processed

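The deposited table holds a normalized count signal made by the authors, read counts divided by a size factor per sample, with no scaling by gene length. The submitters' processing notes name featureCounts, DESeq2 and GRCm39, without versions. The aligner, the annotation and use of the strand are not given in the sources used here. In every column 100% of values were whole multiples of 1 read's worth within a tolerance of 0.01. Symbols, exon lengths and overlaps came from GENCODE M21, which named 29982 of 30399 identifiers. The members and gene lists were chosen with earlier results of these data known.

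The design foresaw limma for normalized values. limma 3.58.1 (R 4.3.3, lmFit, eBayes with trend) was run on log2(value + 1) for genes with a mean of at least 1, with Benjamini-Hochberg adjustment over all of them, and was tested on simulated data. edgeR 4.0.16 and DESeq2 1.42.0 on recovered reads were alternatives on 11 samples, without tumor 3, whose step is too near 1 for recovery to be checked. In each list the called genes with the 3 largest and 2 smallest differences were named, with those against most of the list. Others named were chosen after their values were seen. Replicate numbers follow the order of listing. Nothing says that samples of a group came from separate animals, so p-values measure the spread between these samples. Intervals are exact at 95%. Near copies were sought by blastn on transcripts. Listed markers absent from the table, such as Tcf21, Actc1 and Itgam, were not analysed here, and some genes that the naming rules pick are not reported here.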

Additional observations from a re-analysis of the deposited data

Results flagged for a closer look

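A Dixon ratio above its 95% critical value marked 4 of 69 groups of values, where chance gives 3.45 at 1 in 20. Ina was highest in normal lung 4 (log2 value 1.93, on 2 reads) while the other normal lungs were at 0. Any read in normal lung 4 would give the same ratio of 1.0, so nothing is read from this flag, which is counted among the 4. Stmn4 was lowest in tumor 1 (log2 value 7.53, the others 9.26 to 10.53), with a ratio of 0.576 against 0.568. Map7d2 was lowest in normal lung 2 (log2 value 1.05, on 1 read, the others 1.84 to 2.15). Ank2 was lowest in tumor 1 (log2 value 10.44, the others 11.67 to 12.28).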

How the results depend on the processing

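No member changed direction under any of 23 alternatives. Dcx (11.64 to 15.12) and Ina (11.72 to 14.58) moved with a pseudocount of 0.1, edgeR and DESeq2, and the log2 difference ranged from 3.77 to 6.19 for Nefm, from -4.90 to -3.68 for Stmn2, from 7.54 to 8.24 for Stmn4 and from 8.01 to 8.29 for Stmn3. Genes called higher among the 52 list genes numbered 26 to 28, and lower 7 to 8, when each sample was left out in turn, and 5326 to 5866 higher and 5509 to 6256 lower over all genes. edgeR with TMM factors called 3767 genes lower against 5805, with 18308 genes tested, and without a filter 28 genes were called between trachea-titled and lung-titled tumors against 0. The cause was not tested. Tuba4a and Dclk3, not called, were called lower under some alternatives, both with DESeq2 among them. Equal totals shifted the median log2 difference by 0.19. Limma on the 11 samples of the count tests and the sum of Stmn1 and Gm11223 were added after seeing the data. No paired analysis was possible because the replicate numbers only follow the order of listing and the labels share none between groups.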
